A study of Capra hircus with 24 samples.

Results

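The genes described here are the integrins and the other cell surface receptors for extracellular matrix, with the proteins that tie them to actin, in dermal papilla cells of the cashmere goat (Capra hircus). They were chosen by name: every gene whose symbol is ITGA or ITGB followed by a number, ITGAV and the lettered leukocyte chains, and 15 further genes (CD44, DDR1, DDR2, SDC1 to SDC4, DAG1, ILK, PTK2, TLN1, VCL, FERMT2, LIMS1 and PARVA). Of 20326 genes listed, 40 matched, 25 of them integrin chains. Of the 40, 35 genes, 20 of them integrin chains, passed the level used for testing, a value of 1 or more in 3 or more libraries. The dermal papilla is the knot of mesenchymal cells that the growing hair bulb encloses. Secondary follicles grow the fine cashmere fibre and primary follicles grow the coarse guard hair. The 8 groups, with 3 libraries each, were secondary cells of October males, October females, June males and June females, and primary cells of October males, October females, June males and June females. The labels call October anagen, the growth phase of the hair cycle, and June early anagen. They give no age and no treatment and do not say whether the cells were cultured. Hair cycle stage, season and the occasion of sampling cannot be told apart in any comparison of months.

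An integrin is a pair of membrane proteins, an alpha and a beta chain, that binds matrix outside the cell and, through talin, kindlin and the complex of ILK, PINCH and parvin, the actin cytoskeleton inside it. The alpha chain largely sets the ligand: collagen, laminin, or proteins with the arginine-glycine-aspartate (RGD) motif such as fibronectin. In skin, integrins are known for holding mesenchymal cells in their matrix and for anchoring the follicle's keratinocytes to the basement membrane.

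Values are the authors' normalised expression signal, which sums to between 959766 and 1045876 per library, and the reads behind it are unknown. The fibroblast markers were high, with 6 of 6 tested and COL1A1, a collagen I chain, at group means of 3532 or more. Of 10 papilla markers 7 were tested. CORIN, HHIP and PROM1 stayed under 1 in every library, and ALPL did not exceed a group mean of 2.03. VCAN had group means of 210.8 to 500.7, RSPO3 of 142.0 to 277.2 and FGF7 of 16.1 to 122.9. Those of LEF1 were 8.143 to 13.6 and those of WIF1 1.787 to 9.41. Another papilla marker, SOX2, averaged 14.2 in secondary October males and 0.333, 0.26 and 0.257 in secondary October females, June males and June females, against 12.4 to 15.9 in primary groups. The secondary October male libraries also had the highest mean correlation across genes with another group, 0.992 with primary October males. That group shares their month and sex. Their mean correlation with October females was 0.9824 for primary and 0.9794 for secondary cells, and with June females 0.9741 and 0.977. In SOX2 they stood with the primary cells and against their label. In SULF1, a sulphatase, they averaged 25.31, against 15.21 to 22.52 in the other secondary groups and 39.83 to 52.86 in primary groups. Named differences that rest on these libraries are therefore also given for each sex, the value in females being the one without them. Of the sex check genes SRY was listed at 0 in all 24 libraries, and the sex labels were not checked otherwise.

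Differences are of log2(value + 1), which understates changes of weakly expressed genes. Adjusted p-values are limma's with Benjamini-Hochberg adjustment over 13049 genes, and a gene is called changed at an adjusted p under 0.05. The labels name the libraries of a group biological replicates without tying them to separate animals or cultures, so a p-value measures the spread between these libraries only, which may be technical.

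Papilla cells of every group carried one set of abundant matrix receptors. Taking the deposited values as scaled for transcript length, which the sources do not state, ITGB1, the beta chain shared by most matrix-binding integrins, was the most abundant of the 40, with group means of 1314 to 2659.8. It made up 88.6 to 94.5% of the summed beta chain signal. Among alpha chains ITGA8, a receptor chain for nephronectin, led with 24.1 to 35.2% of the summed alpha chain signal. ITGA5, the fibronectin receptor chain, made up 15.4 to 25.0% and ITGAV, which pairs with several beta chains, 12.9 to 17.7%. Of the leukocyte chains, ITGB2, ITGAL and ITGAM were at the floor and did not pass 0.06 in any library. ITGB7, at 12.77 to 21.38, and ITGAX, at 1.69 to 7.46, were above 1 in every library. ITGA9, a partner of ITGB1, and ITGA2, a collagen-binding chain of epithelia and platelets, also stayed below the level for testing, at group means of 0.0733 to 0.593 for ITGA9 and 0.173 to 0.983 for ITGA2.

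**Figure D1:**
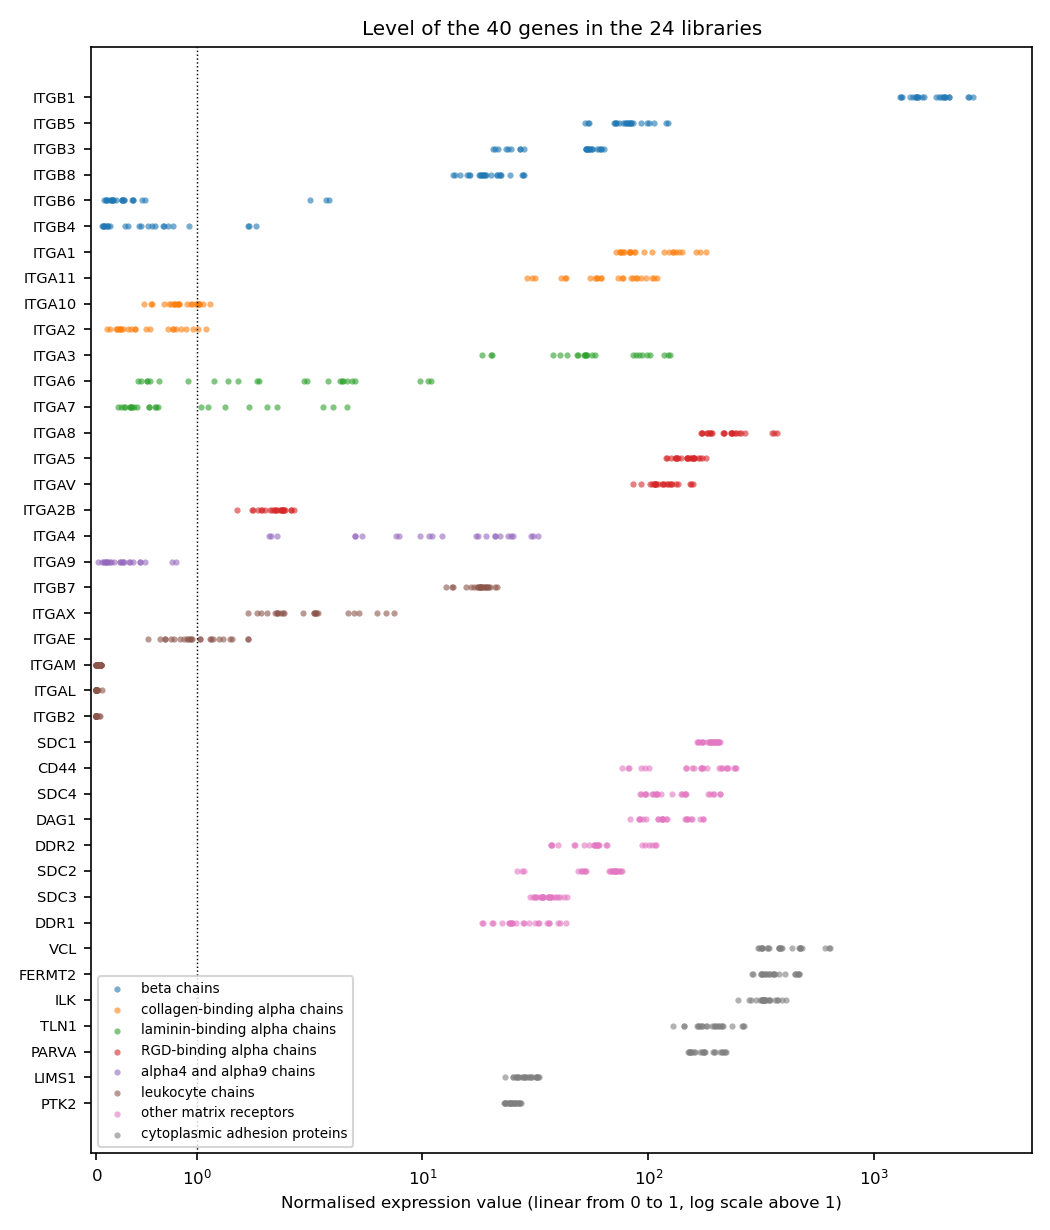
Normalised expression value of each of the 40 genes in each of the 24 libraries (1 point a library, x axis linear from 0 to 1 and logarithmic above), grouped and coloured by role, with the level for testing as a dotted line at 1. ITGB1 lies between 1303 and 2742 and stands apart from every other gene, while ITGA9, ITGAM, ITGAL and ITGB2 lie below 1 throughout.

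In June, secondary papilla cells had lower levels than primary cells of the collagen receptors ITGA1, ITGA11, DDR1 and DDR2 and of ITGB3 and ITGAV, and higher levels of the laminin receptor chains ITGA3 and ITGA6, in each sex. The weakly expressed collagen-binding chain ITGA10 was higher in secondary June cells, and the weakly expressed laminin receptor chain ITGA7 was lower. In June ITGA10 reached a value of 1 in secondary libraries only, and ITGA7 in primary libraries and secondary males only. Both differences follow in part from the level for testing and are given without a test. ITGA6 was under 1 in primary females. Between the months, the laminin receptor chain ITGA3, the fibronectin receptor chain ITGA4 and the hyaluronan receptor CD44 fell in October in both follicle types and both sexes.

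Over both sexes, with 6 libraries against 6, 9 of the 35 genes were higher and 17 lower in secondary than in primary June cells. Of all 13049 genes, 31.6% were higher and 30.3% lower in that comparison, and the median difference was -0.065 for the 35 genes and 0.0041 for all. In October 7 were higher and 12 lower in secondary cells, against 17.5% and 14.1% of all genes, with medians of -0.023 for the 35 and -0.00012 for all. By month, secondary cells had 13 genes higher and 16 lower in October than in June, against 29% and 33.9% of all genes, with medians of -0.083 and -0.011. Primary cells had 10 higher and 17 lower in October, against 28.6% and 32.3%, with medians of -0.057 and -0.0035. Of the 35 genes, ITGB6, ITGB4, ITGA7, ITGA6, ITGAE and ITGA10 reached the level for testing in some groups only. A call between those groups and others follows in part from that level, and nothing more is read from these counts. The difference between follicle types changed between June and October for 25 of the 35, against 46.2% of all genes.

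Rescaling each library to the same total moved some of these splits. For the months in primary cells the 35 genes then split into 14 higher and 15 lower. Over all genes called, the share that was higher became 38%, against 55.4% as deposited, between follicle types in October, 57.4%, against 46.9%, between months in primary cells, and 32.9%, against 50.5%, for the change of the follicle type difference.

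The sexes did not always move together. In June 10 of the 35 genes were higher and 19 lower in secondary than in primary males (30.7% and 28.9% of all genes), and 13 were higher and 12 lower in secondary than in primary females (25% and 24.3%). The male and female differences were unequal for 22 genes (41.2%), and 6 genes were called in opposite directions (6.87%). Called in opposite directions were also 5 genes between follicle types in October (3.82%). Between months there were 2 in secondary cells (6.24%) and 1 in primary cells (6.09%). In October 8 were higher and 6 lower in secondary than in primary males (10.9% and 7.63%), and 9 were higher and 13 lower in females (18.3% and 17.2%), unequal for 16 (26.7%). By month in secondary cells, males had 11 higher and 14 lower in October (25.3% and 31.2%) and females 9 higher and 16 lower (24.2% and 27.1%), unequal for 20 (37.7%). In primary cells, males had 8 higher and 17 lower in October (26% and 29.5%) and females 7 higher and 11 lower (22.7% and 25.6%), unequal for 25 (36.8%). In females alone, without the secondary October male libraries, 22 genes were called between follicle types in October, 25 between months in secondary cells and 20 for the change of the follicle type difference. The female shares of all genes above are from the fit to all libraries. None is given for this fit, so nothing is read from these counts.

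Rescaled to the same total, the October male split between follicle types became 5 higher and 8 lower, and the terms of males minus females in June, as deposited 7 higher and 15 lower, became 10 higher and 11 lower. Over all genes called, the share that was higher between follicle types in males became 64.2% in June, against 51.5% as deposited, and 26.9% in October, against 58.7%. Between months in males it became 31.4% in secondary cells, against 44.8%, and 60.8% in primary cells, against 46.9%. For the terms of males minus females it became 67.5%, against 50.6%, for follicle type in June, 33.9%, against 51.3%, in October, 28.3%, against 45.8%, for months in secondary cells, and 60.7%, against 48.2%, in primary cells.

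A few genes moved the same way in each of 4 comparisons that share no library. Between months, CD44, DAG1, DDR2, ITGA3, ITGA4, PARVA and SDC4 were lower in October in both follicle types and both sexes, which is 7 of 35 genes (20%), against 6.22% of all tested genes. ITGAE and ITGB4 were also higher in October in all 4, but both reached a value of 1 in October libraries only, so that no count is read from them. Between follicle types, ITGA6 was higher in secondary cells in both months and both sexes, and DDR1 and DDR2 were lower. That is 2.86% higher and 5.71% lower, against 1.84% and 1.33% of all genes. ITGA6 stayed under 1 in all primary female libraries, so no count is read from it.

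**Figure D2:**
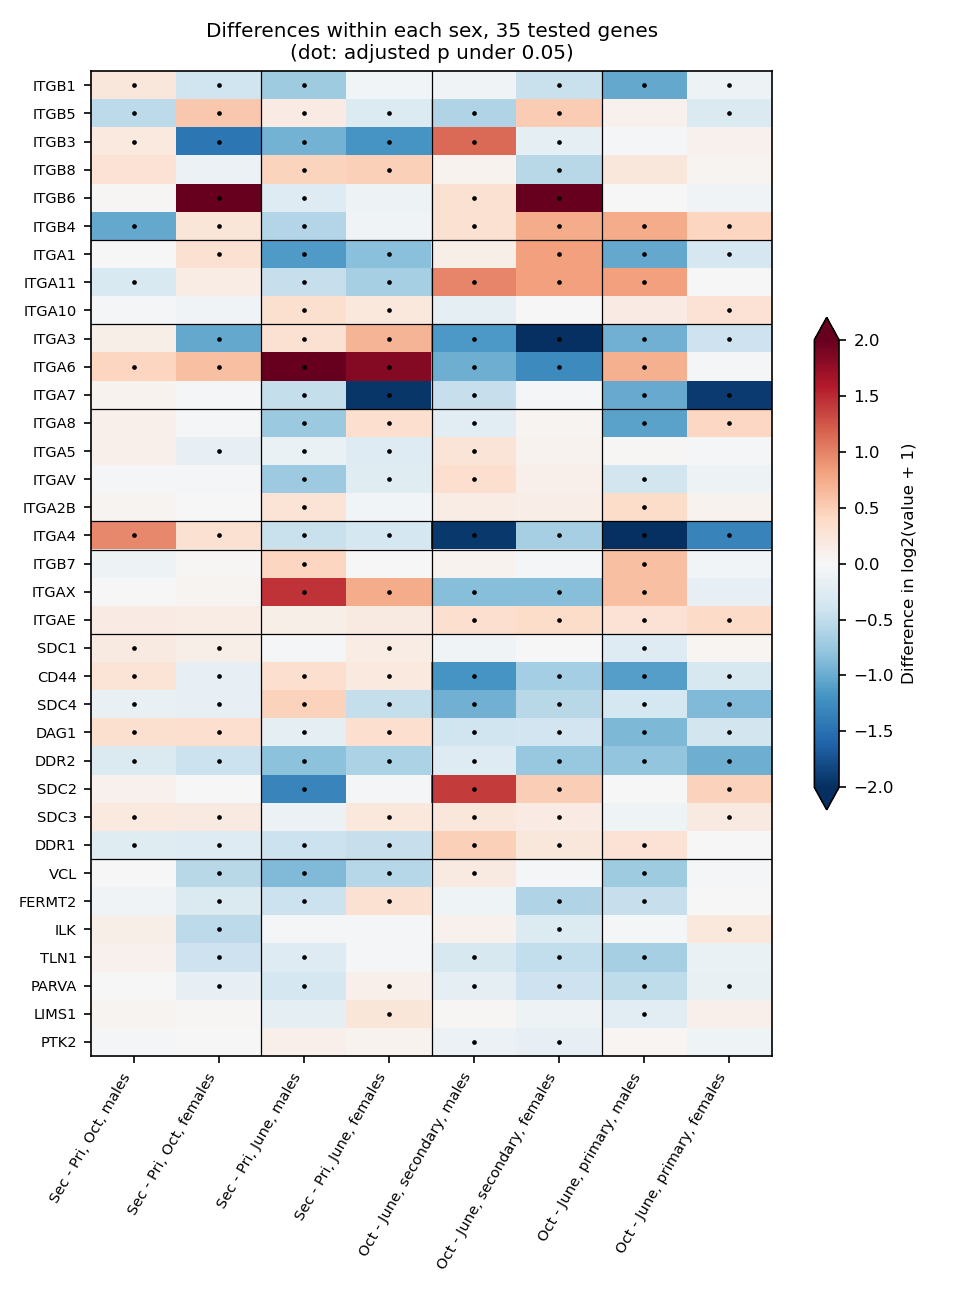
Differences in log2(value + 1) for the 35 tested genes (rows, by role, highest mean first within a role) in the 8 comparisons within 1 sex, secondary minus primary on the left and October minus June on the right. Red is higher in secondary or October cells, blue is lower, and a dot marks an adjusted p under 0.05; ITGA3 and ITGA4 are blue in all 4 columns of months, and ITGA6 is red in all 4 columns of follicle type. ITGB6, ITGB4, ITGA7, ITGA6, ITGAE and ITGA10 reached the level for testing in some groups only. Dots in their rows follow in part from that level and are not read as tests.

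ITGB3, which pairs with alpha V to bind vitronectin and osteopontin, was lower in secondary than in primary cells in every combination of month and sex but October males (gene ID 102169417). Secondary cells had ITGB3 values of 60.4, 61.5 and 61.6 in October males, 21.5, 20.5 and 20.9 in October females, 27.1, 28.2 and 26.9 in June males and 23.8, 23.5 and 24.6 in June females. Primary cells had 53.7, 52.8 and 52.7 in October males, 55.1, 63.4 and 59.1 in October females, 53.1, 54.1 and 54.6 in June males and 54.5, 56.1 and 56.5 in June females. The primary and the secondary October male libraries all lay above the other secondary libraries, with no overlap. The secondary minus primary difference in June was -1.07 (SE 0.031, adjusted p = 2.52e-18). In bulk samples, fewer cells of a type and less RNA per cell cannot be told apart. In October that difference was 0.20 in males and -1.45 in females, and October minus June in secondary cells was 1.13 in males and -0.19 in females. The means over both sexes, -0.63 for follicle type in October and 0.47 for month in secondary cells, describe neither sex.

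ITGB1 (gene ID 102178060) had values in secondary cells of 1528, 1529 and 1569 in October males, 1526, 1491 and 1440.3 in October females, 1659, 1628 and 1565 in June males and 2008, 2069.6 and 1972 in June females. In primary cells its values were 1313, 1326 and 1303 in October males, 1939.8, 2054 and 1881 in October females, 2626, 2612 and 2742 in June males and 2041, 2137 and 2138 in June females. Primary June males were highest and primary October males lowest, and neither group overlapped with any other. October minus June in primary cells was -0.56 (SE 0.026, adjusted p = 2.48e-14), with -1.02 in males and -0.10 in females.

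ITGB5, another partner of alpha V, had group means of 53.6 to 116. October males had 54.5, 52.6 and 53.9 in secondary cells, against 81.2, 72 and 78.6 in primary cells. October females had 106, 120.2 and 122 in secondary cells, against 82.8, 71.3 and 84.2 in primary cells. The follicle types did not overlap within either sex and lay in opposite order, at -0.52 in males and 0.54 in females (males minus females -1.06, adjusted p = 2.91e-09). ITGB8, which with alpha V activates latent TGF-beta, had group means of 14.1 to 27.9 and was higher in secondary June cells, by 0.46 (SE 0.075, adjusted p = 1.38e-05).

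ITGB6 and ITGB4 are chains of epithelial integrins. ITGB6 had values in secondary cells of 0.37, 0.36 and 0.37 in October males, 3.73, 3.18 and 3.87 in October females, 0.10, 0.15 and 0.080 in June males and 0.11, 0.10 and 0.17 in June females. Its primary values were 0.46, 0.28 and 0.28 in October males, 0.16, 0.14 and 0.16 in October females, 0.26, 0.49 and 0.26 in June males and 0.20, 0.26 and 0.17 in June females. It was above 1, and so passed the level for testing, through secondary October females only, so its difference there is given without a test. It was 1.99 in females and 0.031 in males for secondary minus primary October cells. Of 13 keratinocyte markers 11 were tested, and TP63 and KRT1 were under 1 in all libraries. The summed level of the 13 was 304 to 332 in secondary October females, against 41 to 46 in primary October females. It was 47.4 to 55.4 in secondary October males, against 76.8 to 83.9 in primary October males. Secondary June cells had sums of 39.8 to 41.6 (males) and 24.6 to 25.8 (females), against 59.6 to 66.2 (males) and 9.85 to 11 (females) in primary June cells. The sum was thus highest in the libraries with the most ITGB6, where the basal keratin KRT5 averaged 197, against 0.0233 to 27.9 in the other groups, and the part of these markers in the ITGB6 level was not tested.

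ITGB4, the laminin-binding chain of hemidesmosomes, had values in secondary cells of 0.29, 0.43 and 0.32 in October males, 0.71, 0.76 and 0.92 in October females, 0.11, 0.080 and 0.080 in June males and 0.070, 0.060 and 0.080 in June females. Primary cells had ITGB4 values of 1.68, 1.84 and 1.71 in October males, 0.52, 0.56 and 0.45 in October females, 0.67, 0.66 and 0.58 in June males and 0.14, 0.11 and 0.12 in June females. It was weak throughout and highest in primary October males, the single group through which it passed the level for testing.

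**Figure D3:**
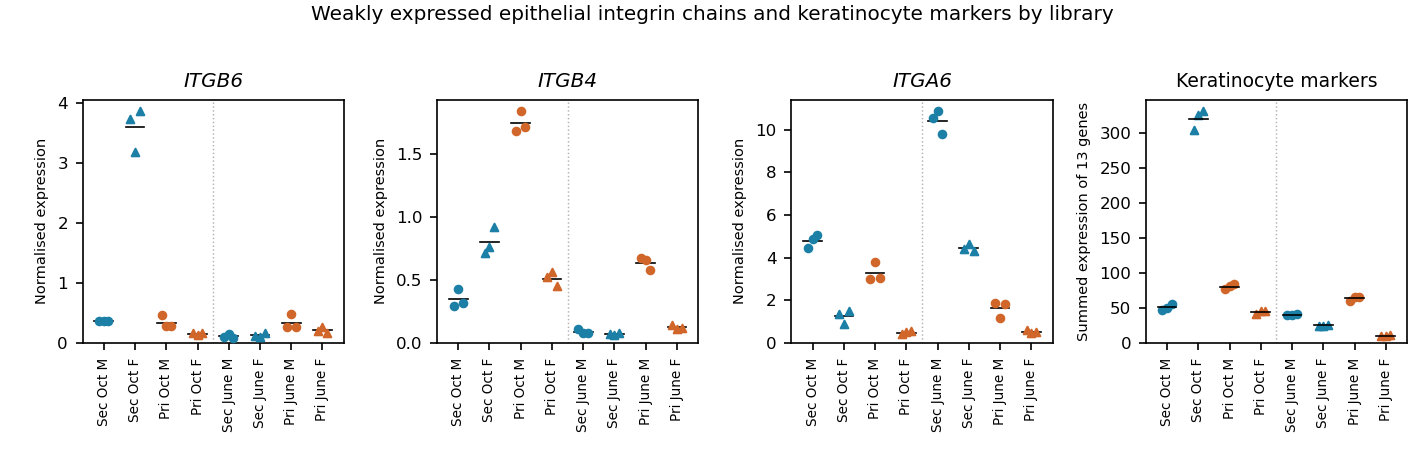
Normalised expression of ITGB6, ITGB4 and ITGA6 in each library and, at the right, the summed expression of 13 keratinocyte markers (the lowest, median and highest library of each group); bars are group means, Sec and Pri are secondary and primary follicles, M and F males and females, and the dotted line separates October from June. ITGB6 is high only in the secondary October female libraries, which also hold the highest marker sums, and ITGA6 is highest in secondary June males, whose marker sum is 39.8 to 41.6.

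ITGA1, whose integrin binds collagen IV and fibrillar collagens, was the most abundant collagen-binding alpha chain (gene ID 102172761). Secondary cells had ITGA1 values of 82.8, 87 and 82.2 in October males, 141, 129 and 123 in October females, 78.3, 77 and 75.7 in June males and 74.6, 74.6 and 72.3 in June females. Primary cells had 82.7, 86.4 and 82.8 in October males, 95.9, 117 and 103 in October females, 169.8, 162 and 181 in June males and 133, 137 and 129 in June females. In June every secondary library lay below every primary one, with a difference of -0.99 (SE 0.042, adjusted p = 2.11e-15), made up of -1.14 in males and -0.84 in females. In October the follicle types overlapped in males (adjusted p = 1) and secondary females lay above primary females, at 0.31, which gave 0.16 over both sexes. The follicle type difference was 1.15 (SE 0.059, adjusted p = 2.64e-13) higher in October than in June over both sexes. October minus June in secondary cells was 0.47, with 0.12 in males (adjusted p = 0.0785) and 0.82 in females (males minus females -0.69, adjusted p = 5.37e-07). In primary cells it was -0.68, with -1.02 in males and -0.34 in females.

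ITGA11, a receptor chain for fibrillar collagen that is typical of fibroblasts, had values in secondary cells of 61.6, 59 and 61.9 in October males, 93, 109 and 104 in October females, 29, 30.5 and 31.5 in June males and 55.4, 58 and 59 in June females (gene ID 102171074). Its values in primary cells were 76.2, 73.1 and 76.9 in October males, 85.7, 83.6 and 106 in October females, 42.6, 43.3 and 40.9 in June males and 88.4, 88.8 and 97.8 in June females. June males were lowest in each follicle type, and females lay above males of the same follicle type and month without overlap. Secondary minus primary in June was -0.56 (adjusted p = 1.25e-09). By month, October minus June in secondary cells was 0.90 (SE 0.05, adjusted p = 3.63e-13), with 0.98 in males and 0.81 in females, and in primary cells 0.41 (SE 0.05, adjusted p = 2.64e-07), with 0.82 in males and -0.0035 in females (adjusted p = 0.974). ITGA10, another collagen-binding chain known from cartilage, lay near the level for testing, with 0.77, 0.82 and 0.74 in October males, 0.80, 1.0 and 1.02 in October females, 1.01, 0.99 and 1.02 in June males and 0.95, 1.02 and 0.81 in June females in secondary cells. In primary cells ITGA10 had 0.72, 0.78 and 0.94 in October males, 0.90, 1.14 and 1.07 in October females, 0.48, 0.55 and 0.82 in June males and 0.67, 0.56 and 0.77 in June females. COL3A1, the collagen III chain, a ligand of these receptors, was lower in secondary than in primary June cells, at -1.39 in males and -0.92 in females, and rose in October in secondary cells, at 1.33 over both sexes and 1.15 in females.

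The laminin-binding alpha chains ITGA3 and ITGA6 were lower in October than in June in secondary cells of both sexes. ITGA3, which with ITGB1 binds several laminins, had values in secondary cells of 53.3, 52.7 and 56.5 in October males, 18.4, 20.2 and 20.2 in October females, 117, 122 and 125 in June males and 88.6, 85.2 and 90.9 in June females (gene ID 102185499). Primary cells had ITGA3 values of 48.9, 48.5 and 51.7 in October males, 40.8, 38 and 43.8 in October females, 93.8, 102 and 98.8 in June males and 53.2, 52.2 and 58.1 in June females. No October library of a follicle type and sex reached the June libraries of the same kind. Between the months, October minus June in secondary cells was -1.63 (SE 0.039, adjusted p = 1.21e-19), with -1.15 in males and -2.12 in females, and in primary cells -0.69 (SE 0.039, adjusted p = 8.57e-13), with -0.97 in males and -0.41 in females. Secondary minus primary was 0.49 in June (adjusted p = 2.15e-10), and in October -0.45 over both sexes, with 0.12 in males (adjusted p = 0.143) and -1.02 in females.

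ITGA6, a laminin receptor chain best known from epithelial and endothelial cells, had values in secondary cells of 4.44, 4.86 and 5.05 in October males, 1.38, 0.91 and 1.52 in October females, 10.6, 10.9 and 9.79 in June males and 4.39, 4.64 and 4.33 in June females (gene ID 102186530). Its primary values were 2.98, 3.82 and 3.07 in October males, 0.42, 0.51 and 0.54 in October females, 1.88, 1.19 and 1.85 in June males and 0.62, 0.45 and 0.51 in June females. Within each sex and month all secondary libraries lay above all primary ones. The primary female libraries of both months were under 1, so in females the difference follows in part from the level for testing. Secondary minus primary was 1.98 (SE 0.076, adjusted p = 3.63e-16) in June and 0.52 (SE 0.076, adjusted p = 1.03e-05) in October, the second with 0.43 in males and 0.60 in females. October minus June in secondary cells was -1.13, with -0.98 in males and -1.27 in females. In secondary June males, where ITGA6 was highest, the summed level of the 13 keratinocyte markers given above was mostly CDH3, P-cadherin, at a mean of 32.6, its highest of the 8 groups. PERP, a desmosome protein, averaged 3.42 there, KRT5 0.0233 and KRT14 0.143. Of 8 endothelial markers CDH5, CLDN5, KDR, TEK, TIE1 and VWF were under 1 in all libraries. PECAM1 averaged 2.0 in secondary June males and 0.00667 to 0.347 in the other groups. ERG, an endothelial transcription factor, averaged 34.8 in secondary June males and 35.4 in secondary June females, against 22.5 in primary June males and 21.3 in primary June females. In October ERG averaged 35.5 in secondary males and 43.8 in secondary females, higher than the 33.7 of primary males and the 27.7 of primary females. The part of these markers in the ITGA6 level was not tested.

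ITGA7, a laminin receptor chain of muscle cells, was weak, with 0.59, 0.53 and 0.58 in October males, 0.28, 0.41 and 0.22 in October females, 1.04, 1.12 and 1.33 in June males and 0.25, 0.36 and 0.34 in June females in secondary cells. Primary cells had ITGA7 values of 0.61, 0.34 and 0.53 in October males, 0.38, 0.29 and 0.35 in October females, 1.71, 2.04 and 2.28 in June males and 3.63, 4.02 and 4.61 in June females. Primary June cells of both sexes lay above all other libraries. ITGA7 reached a value of 1 in these and in secondary June males only, and its difference between follicle types in June, -1.21, is given without a test. LAMA2, a laminin chain of muscle and mesenchymal basement membranes, was also lower in secondary June cells, at -2.49 in males and -1.65 in females. Its October minus June difference was 2.14 in males and 0.25 in females in secondary cells and -0.62 in males and -1.33 in females in primary cells.

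**Figure D4:**
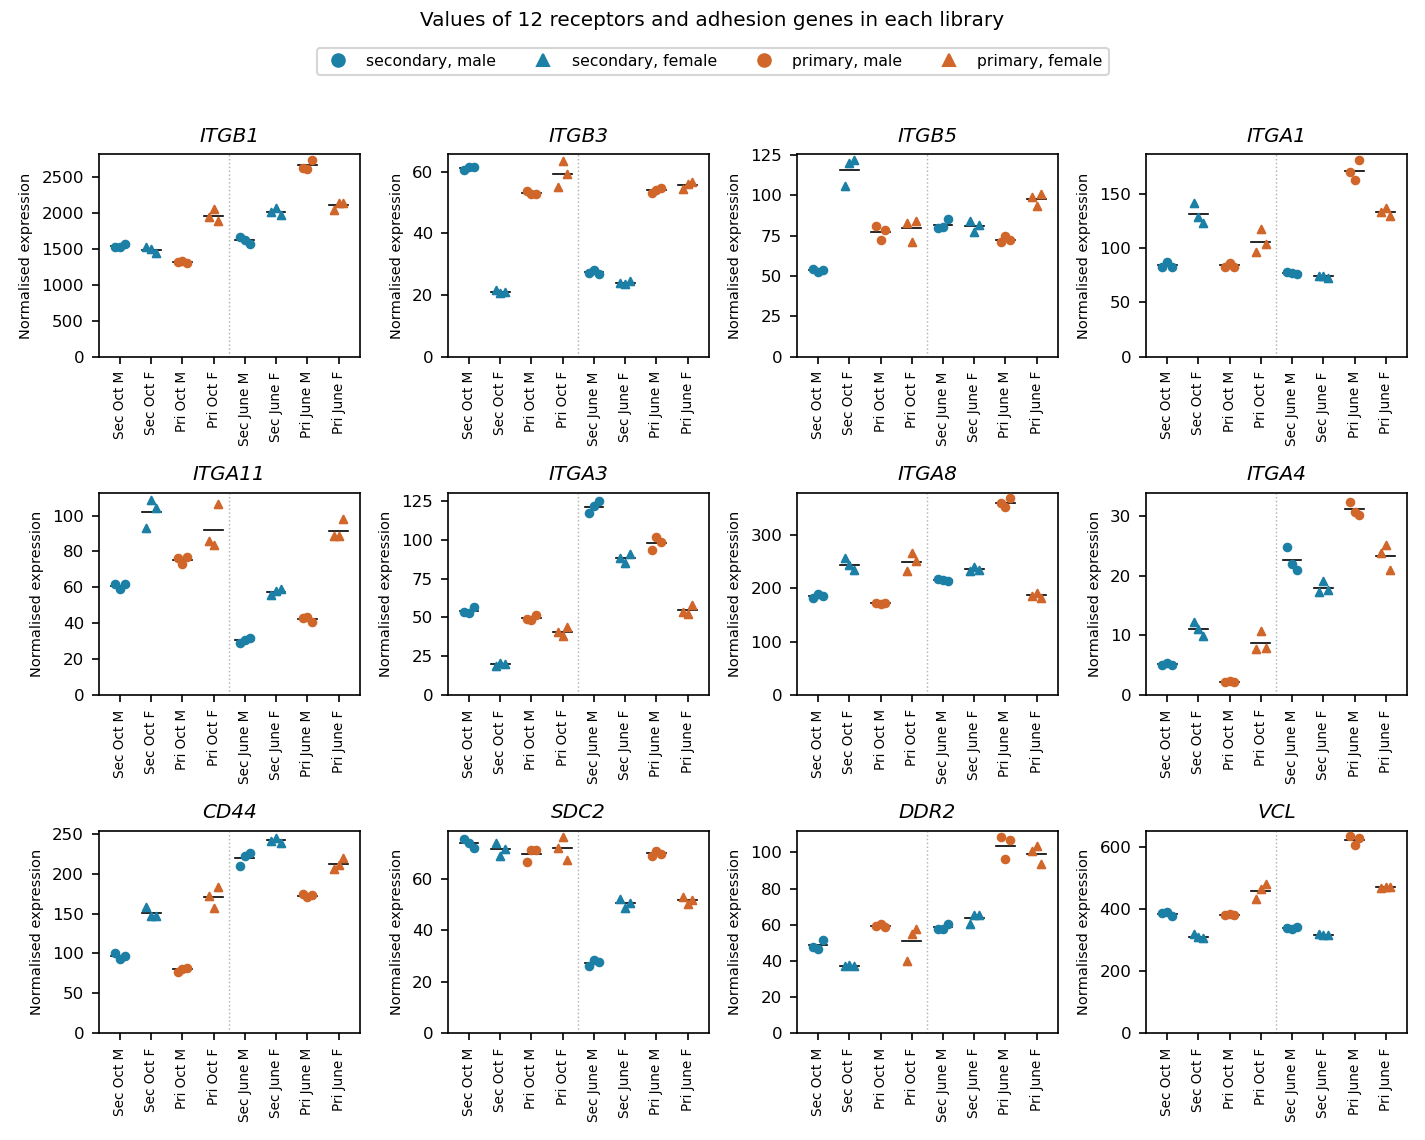
Normalised expression of 12 of the genes in each library (points; circles are males, triangles females, blue secondary and orange primary follicles), with group means as bars and a dotted line between October (left) and June (right). ITGA3, ITGA4 and CD44 are lower in October than in June in each follicle type and sex, and ITGB3 is low in 3 of the 4 secondary groups.

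ITGA4, which with ITGB1 binds fibronectin and VCAM1, had the largest fall between months in primary cells (gene ID 102183190). Secondary cells had ITGA4 values of 5.03, 5.4 and 5.05 in October males, 12.2, 11 and 9.79 in October females, 24.7, 22 and 21 in June males and 17.3, 19.1 and 17.6 in June females. Its values in primary cells were 2.09, 2.26 and 2.13 in October males, 7.62, 10.7 and 7.86 in October females, 32.4, 30.7 and 30.2 in June males and 23.8, 25.2 and 21 in June females. Every October library lay below every June library, whatever the follicle type. For the months, October minus June in secondary cells was -1.30 (SE 0.067, adjusted p = 9.46e-14), with -1.94 in males and -0.67 in females, and in primary cells -2.34 (SE 0.067, adjusted p = 3.46e-18), with -3.35 in males and -1.33 in females. Secondary minus primary was -0.40 in June, with -0.45 in males and -0.35 in females, and 0.64 in October, with 0.96 in males and 0.31 in females. The difference was thus 1.04 (SE 0.095, adjusted p = 5.41e-09) higher in October over both sexes.

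Of the 4 RGD-binding alpha chains, none was called between follicle types in October over both sexes. Of all genes, 17.5% were higher and 14.1% lower in that comparison. For ITGA5 that mean joins opposite orders, with secondary and primary means of 173.6 and 161 in males and 130 and 145.4 in females. The follicle types did not overlap in ITGA5 within either sex. In ITGA8 they did not overlap in October males, at means of 185.6 and 172, and overlapped in October females. ITGA8 had values in secondary cells of 183, 189 and 185 in October males, 257, 244 and 234 in October females, 217, 216 and 214 in June males and 232, 241 and 235 in June females (gene ID 102181695). Primary cells had ITGA8 values of 172, 171 and 173 in October males, 232, 267 and 251 in October females, 360.1, 354 and 370.2 in June males and 187, 192 and 183 in June females. Primary June males stood above every other library. October minus June in primary cells was -1.07 in males and 0.42 in females, opposite in direction (males minus females -1.48, adjusted p = 9.08e-15). All 8 smooth muscle and sheath markers were tested, and their summed level was 12469 to 12822 in primary October males, against 18002 to 18607 in primary June males. In the other groups it lay between 10495.3 and 15067.4. The primary June male libraries were thus highest in this sum as in ITGA8, ITGB1, ITGA1 and VCL. The sum is mostly ACTA2 and TAGLN, which like CNN1, ACTG2 and MYLK had their highest mean there. SMTN had its lowest mean of the 8 groups there, 37.82. MYH11 averaged 6.763, against 7.89 in primary October females, and DES 38.43, against 74.05 in secondary October males. The part of these markers in those levels was not tested.

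ITGAV had values in secondary cells of 110.4, 126 and 118 in October males, 125, 107 and 108 in October females, 101, 93.3 and 85.9 in June males and 106, 108 and 104 in June females (gene ID 102187813). Primary cells had ITGAV values of 121, 122 and 116 in October males, 108, 135 and 107 in October females, 155, 154 and 157 in June males and 127, 133 and 115 in June females. The follicle types overlapped in October and not in June, where the difference was -0.48 (SE 0.056, adjusted p = 1.09e-07). October minus June in secondary cells was 0.21, with 0.33 in males and 0.094 in females (adjusted p = 0.334).

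ITGA5 had values in secondary cells of 180.1, 169 and 172 in October males, 126, 132 and 132 in October females, 136, 149 and 148 in June males and 121, 120.3 and 132 in June females. Its primary values were 159, 159 and 166 in October males, 148, 134 and 153 in October females, 158, 159 and 155 in June males and 150.1, 139 and 158 in June females. These were close together, and secondary minus primary in June was -0.19 (SE 0.038, adjusted p = 0.000155). ITGA2B, the platelet chain, had 2.44, 2.71 and 2.61 in October males, 2.26, 2.22 and 2.45 in October females, 1.93, 2.41 and 2.37 in June males and 1.94, 1.86 and 2.24 in June females in secondary cells. In primary cells ITGA2B had 2.62, 2.39 and 2.38 in October males, 2.11, 2.34 and 2.41 in October females, 1.51, 1.75 and 1.77 in June males and 2.16, 2.0 and 2.2 in June females. The summed level of 3 platelet markers lay between 7.69 and 14.8 in all libraries, with GP1BA under 1 throughout.

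**Figure D5:**
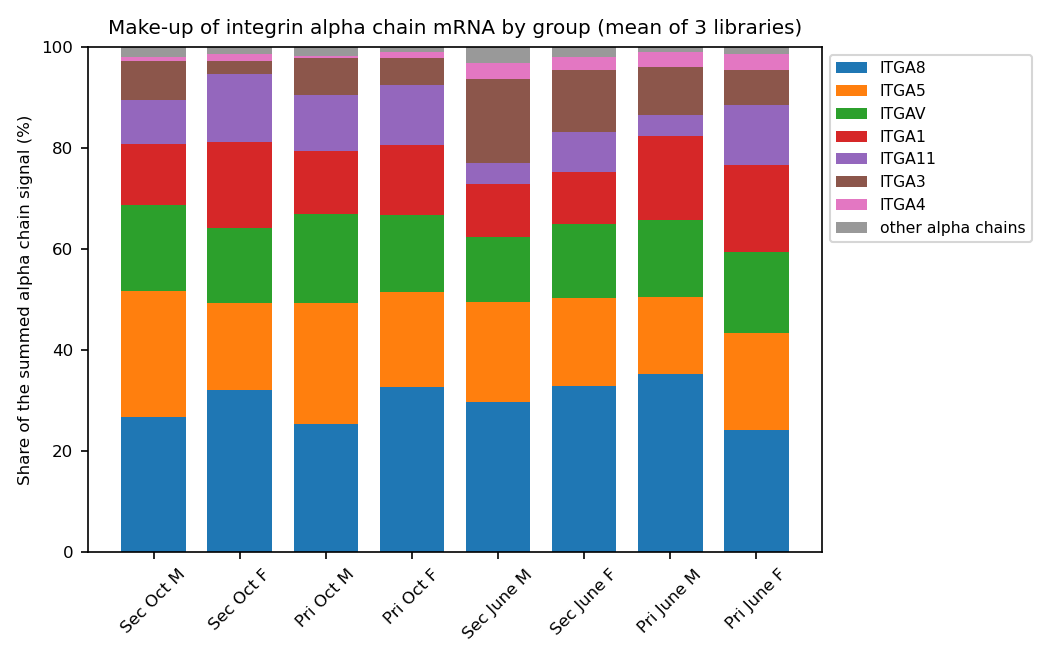
Share of each alpha chain in the summed alpha chain signal (y axis, percent from 0 to 100, mean of 3 libraries) in the 8 groups, October on the left and June on the right. ITGA3 makes up 2.57% in secondary October females and 16.7% in secondary June males, and ITGA4 makes up 0.32% in primary October males and 3.03% in primary June males.

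Of the 6 leukocyte chains 3 were tested. ITGB7, a lymphocyte chain, had values in secondary cells of 19.6, 19.4 and 18.9 in October males, 16.3, 18.5 and 17.6 in October females, 17.9, 17.9 and 19.1 in June males and 17, 17.9 and 19.2 in June females. Primary cells had ITGB7 values of 21.4, 20 and 21 in October males, 17.7, 15.5 and 18.5 in October females, 12.8, 13.5 and 13.6 in June males and 17.5, 18.2 and 18.2 in June females. The group ranges were close, with a higher level in secondary than in primary June males (0.43), which gave 0.22 over both sexes, and October minus June in primary cells was 0.28, with 0.61 in males and -0.058 in females (adjusted p = 0.45). PTPRC, the general leukocyte antigen, did not exceed a group mean of 0.00667.

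ITGAX, known from myeloid cells, had values in secondary cells of 3.38, 3.37 and 3.3 in October males, 2.37, 2.23 and 2.28 in October females, 6.26, 6.89 and 7.46 in June males and 4.69, 5.22 and 4.97 in June females. Its values in primary cells were 3.32, 3.35 and 3.43 in October males, 1.85, 2.43 and 2.26 in October females, 1.69, 2.04 and 1.93 in June males and 2.42, 2.97 and 2.29 in June females. The June follicle types did not overlap, at 1.10 (SE 0.057, adjusted p = 1.23e-13), and October minus June in secondary cells was -0.85, with -0.85 in males and -0.85 in females. Of 13 leukocyte markers 7 were tested, and AIF1, C1QA, C1QB, CD2, CD3E and PTPRC were under 1 in all libraries. The summed level of the 13 was 44.2 to 50.3 in secondary June males and 26.9 to 29.5 in secondary June females, against 24.9 to 28 in primary June males and 28.7 to 29.8 in primary June females. Secondary October cells had sums of 14.4 to 17.5 (males) and 20.4 to 22.6 (females), against 13.3 to 16.3 (males) and 18.9 to 20.7 (females) in primary October cells. CD68, a lysosomal protein rich in macrophages, averaged 21.9 in secondary June males and 3.55 to 9.5 in the other groups. In June females it averaged 7.667 in secondary and 7.76 in primary cells. CD14 averaged 14.81 in secondary and 7.643 in primary June males, and 12.56 and 14.21 in June females. CSF1R was highest in primary June females, at 2.137, against 0.5467 in secondary June females and 0.9767 in secondary June males. The part of these markers in the ITGAX level was not tested. ITGAE, the alpha chain of intraepithelial lymphocytes, had 1.44, 1.68 and 1.03 in October males, 1.25, 1.68 and 1.31 in October females, 0.91, 0.83 and 0.87 in June males and 0.93, 0.74 and 0.95 in June females in secondary cells. In primary cells ITGAE had 1.03, 1.41 and 0.94 in October males, 1.15, 1.16 and 1.18 in October females, 0.68, 0.90 and 0.63 in June males and 0.68, 0.52 and 0.77 in June females.

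CD44, the main hyaluronan receptor, fell in October in both follicle types (gene ID 102182426). Secondary cells had CD44 values of 101, 93 and 96.5 in October males, 159, 147 and 147 in October females, 209, 223 and 226 in June males and 242, 245 and 239 in June females. Its primary values were 76.7, 80.9 and 82.1 in October males, 172, 156 and 183 in October females, 175, 170.3 and 173 in June males and 205, 212 and 220.2 in June females. October males were lowest in each follicle type, and within a follicle type and sex the months did not overlap. For the months, October minus June in secondary cells was -0.93 (SE 0.036, adjusted p = 5.36e-16), with -1.17 in males and -0.68 in females, and in primary cells -0.71 (SE 0.036, adjusted p = 7.8e-14), with -1.10 in males and -0.32 in females. The fall was larger in males, with males minus females of -0.49 in secondary cells (adjusted p = 6.9e-06) and -0.78 in primary cells (adjusted p = 6.92e-09). Secondary minus primary in June was 0.27 (adjusted p = 1.01e-06).

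Of the genes of hyaluronan synthesis and breakdown, 8 were tested. In June 3 were higher and 4 lower in secondary than in primary cells (31.6% and 30.3% of all genes). In October 2 were higher and 0 lower (17.5% and 14.1%). By month, secondary cells had 5 higher and 3 lower in October (29% and 33.9%), and primary cells 4 and 3 (28.6% and 32.3%). In females alone 3 were higher and 1 lower in secondary than in primary October cells (18.3% and 17.2%). By month secondary cells of females had 3 higher and 3 lower (24.2% and 27.1%). HAS2, a hyaluronan synthase, was higher in secondary June cells, at 1.61 in males and 0.77 in females, and secondary minus primary in October was -0.0012 in males (adjusted p = 0.995) and 0.74 in females. HMMR, a hyaluronan-binding protein abundant in dividing cells, was higher in secondary June cells, at 1.38 in males and 1.44 in females, and fell in October in secondary cells, at -0.86 in males and -1.16 in females. TMEM2, a cell surface hyaluronidase, was lower in secondary June cells, at -0.29 in males and -1.01 in females, and rose in October in secondary cells, at 0.68 in males and 0.53 in females.

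The syndecans are membrane proteins that carry heparan sulphate and act beside integrins in binding fibronectin. SDC1, known chiefly from epithelia, had values in secondary cells of 195, 181 and 187 in October males, 187, 207 and 205 in October females, 191, 199.9 and 198 in June males and 197, 192 and 203 in June females. Primary cells had SDC1 values of 165, 166 and 168 in October males, 189, 173 and 187 in October females, 200.4, 204 and 194 in June males and 174, 172 and 185 in June females. They were steady, and secondary minus primary in October was 0.15, with 0.17 in males and 0.12 in females. SDC3, the syndecan first known from nerve, had group means of 31.9 to 42 and was 0.19 higher in secondary October cells, with 0.20 in males and 0.19 in females. SDC4, which gathers at focal adhesions, had group means of 95.5 to 204, and its October minus June difference was -0.97 in males and -0.56 in females in secondary cells and -0.36 in males and -0.88 in females in primary cells, -0.76 and -0.62 over both sexes.

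SDC2 had values in secondary cells of 75.8, 74.2 and 72.1 in October males, 74.1, 69.1 and 71.8 in October females, 26.2, 28.3 and 27.6 in June males and 52.3, 48.6 and 50.8 in June females (gene ID 102183082). Its values in primary cells were 66.8, 71.2 and 71.1 in October males, 72.2, 76.3 and 67.5 in October females, 69.1, 71 and 69.8 in June males and 53.1, 50.2 and 52 in June females. All October groups overlapped with another October group, and secondary June males lay below every other library. By month, October minus June in secondary cells was 0.95 (SE 0.033, adjusted p = 1.07e-16), with 1.40 in males and 0.49 in females, and in primary cells 0.23 (SE 0.033, adjusted p = 3.44e-06), with -0.0065 in males (adjusted p = 0.919) and 0.47 in females. Secondary minus primary in June was -0.68 over both sexes, with -1.32 in males and -0.033 in females (males minus females -1.29, adjusted p = 3.97e-13).

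Of the glypicans and heparan sulphate genes, 14 were tested. In June 2 were higher and 7 lower in secondary than in primary cells (31.6% and 30.3% of all genes). In October 6 were higher and 2 lower (17.5% and 14.1%). By month, secondary cells had 6 higher and 5 lower in October (29% and 33.9%), and primary cells 2 and 6 (28.6% and 32.3%). In females alone 7 were higher and 1 lower in secondary than in primary October cells (18.3% and 17.2%). By month secondary cells of females had 6 higher and 3 lower (24.2% and 27.1%). SULF1, which removes sulphate groups from heparan sulphate, was lower in secondary cells, at -1.45 in males and -1.35 in females in June and -1.03 in males and -0.79 in females in October. The glypican GPC1 was higher in secondary October cells, at 0.53 in males and 0.61 in females, and secondary minus primary in June was 0.93 in males and 0.04 in females (adjusted p = 0.702). SULF2, the related sulphatase, fell in October in primary cells, at -1.26 in males and -0.54 in females, and the difference in secondary cells was -1.08 in males and -0.016 in females (adjusted p = 0.794). The glypican GPC2 rose in October in secondary cells, at 0.47 in males and 1.07 in females, and the difference in primary cells was 1.06 in males and 0.068 in females (adjusted p = 0.593).

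The discoidin domain receptors, kinases that bind collagen directly, were lower in secondary cells in both months. DDR2, the form typical of mesenchyme, had values in secondary cells of 47.4, 46.8 and 51.7 in October males, 36.9, 37.6 and 37 in October females, 57.5, 57.6 and 60.2 in June males and 60.5, 65.3 and 65.5 in June females (gene ID 100860806). Primary cells had DDR2 values of 59.5, 60.1 and 58.7 in October males, 39.9, 54.7 and 57.8 in October females, 108, 96.3 and 107 in June males and 101, 104 and 93.8 in June females. Within each sex and month every secondary library lay below every primary one, although a single primary October female library, at 39.9, lay near the secondary values. Secondary minus primary was -0.72 (SE 0.061, adjusted p = 5.23e-10) in June and -0.35 (SE 0.061, adjusted p = 7.48e-05) in October, the second with -0.29 in males and -0.42 in females. October minus June was -0.26 in males and -0.76 in females in secondary cells and -0.79 in males and -0.97 in females in primary cells, -0.51 and -0.88 over both sexes. DDR1, the form typical of epithelia, had group means of 19.1 to 41.3, and secondary minus primary was -0.45 in June and -0.25 in October, the second with -0.25 in males and -0.25 in females. The October minus June difference was 0.35 in secondary cells, with 0.48 in males and 0.22 in females, and 0.15 in primary cells (adjusted p = 0.0173), with 0.29 in primary males and 0.002 in primary females (adjusted p = 0.984).

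DAG1, the dystroglycan that links laminin to dystrophin or utrophin, had group means of 90.5 to 173. Between the months, October minus June was -0.40 in males and -0.38 in females in secondary cells and -0.89 in males and -0.37 in females in primary cells, -0.39 and -0.63 over both sexes. Secondary minus primary in October was 0.32 (SE 0.034, adjusted p = 8.28e-08), with 0.31 in males and 0.33 in females. Of the genes of its complex and glycosylation, 21 were tested. In June 5 were higher and 10 lower in secondary than in primary cells (31.6% and 30.3% of all genes). In October 4 were higher and 4 lower (17.5% and 14.1%). By month, secondary cells had 4 higher and 9 lower in October (29% and 33.9%), and primary cells 1 and 13 (28.6% and 32.3%). In females alone 2 were higher and 3 lower in secondary than in primary October cells (18.3% and 17.2%). By month secondary cells of females had 3 higher and 6 lower (24.2% and 27.1%). SGCD, a sarcoglycan of muscle, was lower in secondary than in primary June cells, at -1.58 in males and -0.56 in females, and rose in October in secondary cells, at 0.63 in males and 0.65 in females. AGRN, a matrix ligand of dystroglycan, fell in October in primary cells, at -0.34 in males and -0.78 in females.

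Inside the cell, of 7 tested adhesion proteins 1 was higher and 3 lower in secondary June cells (31.6% and 30.3% of all genes). In secondary October cells none was higher and 5 lower (17.5% and 14.1%). That count is over both sexes and rests in part on the secondary October male libraries. In October males the secondary and primary means were 385.1 and 381.4 for VCL and 345.4 and 319.2 for ILK. They were 177.1 and 166.1 for TLN1, 319.3 and 333.7 for FERMT2, and 152.4 and 153.6 for PARVA. October females had 311.1 and 458.9, 271 and 387.7, 138.7 and 185.1, 298.8 and 367.3, and 157.5 and 176.6, in that order. VCL, vinculin, which joins talin to actin, had values in secondary cells of 386, 391 and 378 in October males, 319.5, 308 and 305 in October females, 338, 335 and 342 in June males and 318, 317 and 318 in June females (gene ID 102188740). Its values in primary cells were 381, 384 and 379.5 in October males, 433, 464 and 480.0 in October females, 636, 606 and 630.2 in June males and 468, 472 and 471 in June females. October males of the follicle types overlapped, and in each other combination of month and sex secondary libraries lay below primary ones. Secondary minus primary was -0.72 (SE 0.025, adjusted p = 5.91e-17) in June and -0.27 in October, with 0.014 in October males (adjusted p = 0.838) and -0.56 in October females.

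TLN1, talin, which binds the beta chain's tail, had values in secondary cells of 182, 169.7 and 180.1 in October males, 128, 144 and 143 in October females, 212, 215 and 235 in June males and 196, 192 and 200.3 in June females. Primary cells had TLN1 values of 164, 167 and 167 in October males, 173, 173 and 209 in October females, 265, 262 and 261 in June males and 204, 197 and 206 in June females. Primary June males were highest. Between the months, October minus June in secondary cells was -0.41 (SE 0.042, adjusted p = 1.79e-08), with -0.31 in males and -0.50 in females, and in primary cells -0.40 (SE 0.042, adjusted p = 3.04e-08), with -0.66 in males and -0.13 in females (adjusted p = 0.0701). FERMT2, a kindlin, which activates integrins beside talin, had values in secondary cells of 316, 326 and 317 in October males, 318, 292 and 287 in October females, 356, 345 and 319.6 in June males and 458, 456 and 446 in June females. Its primary values were 333, 339 and 329.6 in October males, 358, 403 and 342 in October females, 467, 446 and 463 in June males and 363, 381 and 359 in June females. The months overlapped in secondary males and in primary females, and October minus June was -0.089 in males (adjusted p = 0.149) and -0.60 in females in secondary cells and -0.46 in males and -0.0043 in females (adjusted p = 0.955) in primary cells.

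PARVA, alpha-parvin, which binds ILK and actin, had values in secondary cells of 152, 153 and 152 in October males, 162, 159 and 152 in October females, 172, 169 and 174 in June males and 213, 211 and 207 in June females. Primary cells had PARVA values of 150.4, 155 and 156 in October males, 176, 176 and 177 in October females, 219, 217 and 221 in June males and 195, 194 and 198 in June females. The change by month, October minus June, was -0.17 in males and -0.42 in females in secondary cells and -0.51 in males and -0.15 in females in primary cells. ILK, the integrin-linked pseudokinase, had group means of 271 to 388, and secondary minus primary in October was -0.20 over both sexes, with 0.11 in males and -0.52 in females (adjusted p = 1.64e-06). LIMS1, the PINCH adaptor, had group means of 26.6 to 31.5, and PTK2, focal adhesion kinase, of 23.8 to 26.6, the narrowest span of the 35, with a highest mean 1.12 times the lowest.

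Of further adaptors and kinases of focal adhesions, 36 were tested. In June 6 were higher and 17 lower in secondary than in primary cells (31.6% and 30.3% of all genes). In October 4 were higher and 17 lower (17.5% and 14.1%). By month, secondary cells had 6 higher and 18 lower in October (29% and 33.9%), and primary cells 3 and 22 (28.6% and 32.3%). In females alone 4 were higher and 20 lower in secondary than in primary October cells (18.3% and 17.2%). By month secondary cells of females had 5 higher and 19 lower (24.2% and 27.1%). KANK1, which binds talin around adhesions, fell in October in both follicle types, at -1.82 in males and -1.27 in females in secondary cells and -1.49 in males and -0.28 in females in primary cells. Its means were 21.7 and 20 in secondary October males and females, against 79.2 and 49.7 in secondary June males and females. PARVB, beta-parvin, was higher in secondary than in primary June cells, at 2.14 in males and 0.36 in females, and secondary minus primary in October was 0.078 in males (adjusted p = 0.53) and 1.07 in females. The tensin TNS1, which links integrins to actin, was lower in secondary cells, at -0.75 in males and -0.70 in females in June and -0.24 in males and -0.43 in females in October. LIMS2, a relative of LIMS1, was lower in secondary June cells, at -0.96 in males and -0.51 in females, and its October difference was 0.16 in males (adjusted p = 0.123) and -1.20 in females. ZYX, zyxin, an adaptor of stressed actin fibres, fell in October in secondary cells, at -0.64 in males and -0.88 in females. TES, a zyxin-binding protein, had an October minus June difference in primary cells of -2.08 in males and -0.079 in females (adjusted p = 0.367).

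The ligands of these receptors were tested as a list of 27 genes. In June 5 were higher and 18 lower in secondary than in primary cells (median -0.29), against 31.6% and 30.3% of all genes. In October 17 were higher and 4 lower (median 0.13), against 17.5% and 14.1%. Rescaling moved the share of higher calls over all genes there from 55.4% to 38%, and the ligands were not counted after rescaling. By month, secondary cells had 17 higher and 7 lower in October (29% and 33.9%), and primary cells 6 and 19 (28.6% and 32.3%). In females alone the October split between follicle types was 14 higher and 3 lower (18.3% and 17.2%). The months split secondary cells of females into 12 higher and 6 lower (24.2% and 27.1%). SPP1, osteopontin, a ligand of the ITGAV and ITGB3 pair and of ITGA4, was higher in secondary cells, at 1.92 in males and 0.46 in females in June and 0.97 in males and 0.27 in females in October. Its means were 299.6 and 380.5 in secondary October males and females, against 152 and 315 in primary October males and females. POSTN, periostin, a matrix protein that binds alpha V integrins, rose in October in both follicle types, at 2.25 in males and 1.25 in females in secondary cells and 1.33 in males and 1.46 in females in primary cells. FN1, fibronectin, the ligand of ITGA5, was higher in secondary than in primary October cells, at 0.20 in males and 0.77 in females. COL4A1, a collagen of basement membranes, fell in October in both, at -0.41 in males and -0.55 in females in secondary cells and -1.11 in males and -0.91 in females in primary cells. LTBP1, which holds latent TGF-beta in the matrix, was lower in secondary June cells, at -1.65 in males and -0.99 in females. THBS2, a thrombospondin, had a secondary minus primary difference in June of 0.78 in males and 0.10 in females (adjusted p = 0.0935).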

How the data were processed

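RNA of 24 libraries, 3 for each of the 8 groups of follicle type, month and sex, was analysed. The deposited table holds the authors' normalised expression signal per gene, with 2 decimals. Per the submitters' processing notes, kallisto 0.46.1 and sleuth 0.30.0 were used; the genome build and transcript set were not given in sources used here. Library totals ran from 959766 to 1045876, so the libraries are not scaled to one common total, and the read depth is unknown. Gene IDs of all 40 genes matched a RefSeq gene table by symbol, which was used for names only.

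One model was fitted to log2(value + 1) of the 13049 (of 20326) genes that reached 1 in 3 or more libraries, with 8 group means as terms (limma 3.58.1 with trend and robust variance, R 4.3.3, statmod 1.5.0), and p-values were Benjamini-Hochberg adjusted over those genes. The model was tested on simulated data. Tables and figures were made with Python 3.11.15, pandas 2.3.3 and matplotlib 3.10.9. Comparisons were secondary minus primary in each month, October minus June in each follicle type, the change of the follicle type difference between months, and each of the 4 within males, within females and as males minus females.

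The genes, the companion lists (integrin ligands, adaptors and kinases of focal adhesions, membrane partners, heparan sulphate, hyaluronan and dystroglycan genes, YAP and SRF targets) and the marker lists (papilla, fibroblast, keratinocyte, leukocyte, endothelium, smooth muscle and sheath, platelet, pericyte, melanocyte) were chosen with earlier results of these data known. Differences are named for called genes that averaged 5 or more on either side of the comparison, up to 6 in each direction per comparison, and up to 3 per companion list. Values in every library are given, by role, for the gene with the highest mean and up to 3 with the largest differences. ITGB5, weakly expressed chains and within-sex values outside this rule were added after their values were seen. Differences over both sexes outside this rule are also given, such as ITGB1 and TLN1 between months and ITGAV, ITGA5, ITGA4 and DDR1 between follicle types in June. Others are ITGA6 between follicle types in October, DDR2 and DAG1 between months in secondary cells and SDC4 between months in primary cells. Alternatives were another scaling, filter, pseudocount and variance model, groups fitted alone, a replicate block, leaving out each library, group means in place of libraries and, chosen after seeing the data, females alone. The labels do not say that a replicate number is shared between groups, and no sequence of these genes was used here.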

Additional observations from a re-analysis of the deposited data

Results flagged for a closer look

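ITGB3, the beta chain that pairs with alpha V or the platelet chain, drew attention because its differences in males and in females were both called and opposite in sign, with the difference between them also called by limma. Between follicle types in October, secondary minus primary was 0.20 in males and -1.45 in females, so that males minus females was 1.65 (adjusted p = 2.79e-15). Between months in secondary cells, October minus June was 1.13 in males and -0.19 in females, so that males minus females was 1.32 (adjusted p = 1.2e-13). Both rest on the secondary October male libraries, whose ITGB3 values of 60.4, 61.5 and 61.6 stand beside 53.7, 52.8 and 52.7 in primary October males, and which resemble the primary libraries in SOX2 as well. Whether these libraries hold what their label says was not tested.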

How the results depend on the processing

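Of 143 counts of called genes under the alternatives other than leaving out single libraries, 137 stayed within 1.5 times the count as reported, as did all 408 counts with 1 library left out. With only the groups compared in the fit, 13 genes were called between follicle types in October females, against 22. With the 8 group means treated as single samples, 0 genes were called for follicle type in June, follicle type in October, month in secondary cells, month in primary cells and the change of the follicle type difference by limma; at an unadjusted p under 0.05 these were 9, 0, 6, 8 and 4 of the 35, and over all genes 310, 0, 1, 0 and 1 were called. That setting leaves 8 values in place of 24. Of the differences of genes named by the rule above, 1459 kept their direction and call, 48 kept their direction and lost the call and 1 reversed. Differences given outside that rule were not followed through these alternatives one by one. ITGB3 between months in secondary cells became -0.19 in females alone (adjusted p = 0.00214). Besides the group means, calls were lost for ITGA1 in October with each library rescaled to the same total (0.11, adjusted p = 0.0605), DDR1 between months in primary cells without primary June female replicate 2 (0.12, adjusted p = 0.0538) and ITGAV between months in secondary cells in females alone (0.09, adjusted p = 0.339).

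With the replicate number as a block, 26, 19, 29, 27 and 25 genes were called in the 5 comparisons over both sexes, in the order above, and no count left 1.5 times its reported value. The labels do not tie the numbers together, and the correlation of deviations over 84 pairs of same-numbered libraries ran from -0.281 to 0.348 with a median of 0.0335 and exceeded 0.1 in 25 pairs, so the numbers were not taken as pairs. The unknown read depth limits what can be said of genes with values near 1.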

Other observations

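Of the membrane partners of integrins, 12 were tested. In June 5 were higher and 4 lower in secondary than in primary cells (31.6% and 30.3% of all genes). In October 5 were higher and 3 lower (17.5% and 14.1%). By month, secondary cells had none higher and 6 lower in October (29% and 33.9%), and primary cells 3 and 7 (28.6% and 32.3%). In females alone 4 were higher and 3 lower between follicle types in October (18.3% and 17.2%). By month secondary cells of females had 2 higher and 4 lower (24.2% and 27.1%). EMP2, a membrane protein that associates with integrins, was higher in secondary June cells, at 1.56 in males and 0.36 in females, and its October difference was 0.05 in males (adjusted p = 0.522) and 0.60 in females. For PLAUR, the urokinase receptor, secondary minus primary was 1.26 in males and 0.16 in females in June and 0.078 in males (adjusted p = 0.311) and 0.72 in females in October. The tetraspanin CD9 fell in October in primary cells by limma's test, at -0.65 in males and -0.13 in females, and the difference in secondary cells was -0.71 in males and -0.084 in females (adjusted p = 0.0898).

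Of the targets of YAP and SRF, transcriptional regulators that respond to adhesion and actin tension, 13 were tested. In June 3 were higher and 8 lower in secondary than in primary cells (31.6% and 30.3% of all genes). In October 2 were higher and 8 lower (17.5% and 14.1%). By month, secondary cells had 5 higher and 5 lower in October (29% and 33.9%), and primary cells 2 and 10 (28.6% and 32.3%). In females alone 3 were higher and 8 lower between follicle types in October (18.3% and 17.2%). By month secondary cells of females had 4 higher and 7 lower (24.2% and 27.1%). CTGF, a matricellular growth factor partner, was lower in secondary cells, at -1.25 in males and -0.69 in females in June and -0.15 in males and -0.55 in females in October. ANKRD1, a nuclear ankyrin-repeat protein, rose in October in primary cells, at 0.48 in males and 1.64 in females, and its difference in secondary cells was opposite in the sexes, at 1.69 in males and -0.57 in females. AXL, a receptor kinase, was higher in secondary June cells, at 0.75 in males and 0.47 in females, and TPM1, a tropomyosin, was lower there, at -0.75 in males and -0.66 in females.

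Of the remaining marker lists, the summed level of the pericyte markers lay between 76.95 and 135.7 over the libraries, with RGS5 and KCNJ8 under 1 throughout. The melanocyte markers summed to between 9.65 and 14.51, with DCT, MLANA, TYR and TYRP1 under 1. The endothelial markers summed to between 21.27 and 46.27.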
